A study of Mus musculus with 10 samples.

Results

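The 37 genes of the mouse mitochondrial genome were examined in RNA from sorted small-intestine crypt cells. They were taken as every row of the count files whose name starts with mt-, out of 35006 gene rows, and were split into 13 mRNA genes, 22 tRNA genes (names that start with mt-T) and 2 rRNA genes (mt-Rnr1 and mt-Rnr2). The members were chosen by name, and the classes and the comparison were selected on their counts per library in these same data, so their levels over the populations are a description, and no p-value is given for them. Live EpCAM+ epithelial cells came from EF1a-OSCAR mice of the C57BL6/J strain, and 10000 cells of each of 5 populations were sorted, in 2 replicates each, for poly-A RNA sequencing, which gave 10 libraries. All 5 groups carry the same transgene, in which the EF1a promoter drives mCherry joined through a P2A peptide to VeN90, a Venus variant that dims when the kinase CDK9 phosphorylates it. The OSCAR signal is the ratio of VeN90 to mCherry fluorescence, and EF1a low or high refers to the general expression of the transgene. By their labels, P1 was OSCARlow EF1alow, P2 was OSCARhigh EF1alow, P3 was OSCARlow EF1ahigh, P4 was OSCARmed EF1alow and P5 was OSCARmed EF1ahigh. The labels give no mouse for a replicate and no age, so the errors below measure the spread between these libraries, and each population is a fluorescence gate that may hold several cell types.

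Mitochondrial DNA is copied into long RNAs that run over many genes, from both of its strands, by the polymerase encoded by the nuclear gene Polrmt with the factors Tfam and Tfb2m. The tRNAs lie between most of the mRNA and rRNA genes, and cutting them out frees the mRNAs, most of which then receive short poly-A tails. The mRNAs encode core subunits of the respiratory chain: mt-Nd1 to mt-Nd6 and mt-Nd4l belong to complex I, mt-Cytb to complex III, mt-Co1 to mt-Co3 to complex IV and mt-Atp6 and mt-Atp8 to the ATP synthase, complex V. mt-Rnr1 and mt-Rnr2 are the RNAs of the mitochondrial ribosome. Every other protein of the chain, and all factors that copy, cut and decay mitochondrial RNA, come from nuclear genes.

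Between 3857612 and 6485823 counts per library fell on genes. The libraries labelled P3 stood apart: mitochondrial genes took 59.2% of counts in the first replicate and 36.1% in the second, against 1.04% to 5.19% in the 8 other libraries. They held 1574312 and 3003394 nuclear counts, where the others held 4732040 to 6291247, and all levels below are therefore counts per 1000000 counts on nuclear genes, or nuclear CPM. At this depth 3 counts, the limit that a count of 0 allows, corresponded to 0.477 to 1.91 nuclear CPM. Intervals and limits cover counting error only. All 7 epithelial markers (Epcam, Krt8, Krt18, Krt19, Cdh1, Vil1 and Cldn7) had counts in every library. The libraries labelled P2 held the most summed Paneth cell markers, 389425 and 284071 nuclear CPM, against 4047 and 2701 in those labelled P3. The study's text places markers of secretory cells in P3, so labels and text conflict for these populations. All values here follow the labels, and those headed P3 may belong to the P2 gate and the reverse. What a value says of an OSCAR or EF1a gate in P2 or P3 depends on that.

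How much of a mitochondrial gene can be counted depends on its copies elsewhere. On chromosome 1 of NCBIM37 (mm9), chr1:24618374-24623027 on the minus strand matched positions 6390 to 11042 of the 16299-base mitochondrial genome at 99.936% identity over 4654 aligned positions. This nuclear copy touches 13 mitochondrial genes and holds 11 of them whole: mt-Co2, mt-Atp8, mt-Atp6, mt-Co3, mt-Nd3, mt-Nd4l and 5 tRNA genes. It differs from the mitochondrial genome by the substitutions A6393T in mt-Co1 and T9461C in mt-Nd3 and by 1 added base in mt-Tr, with positions counted from 1 at the first base of the mitochondrial genome and the mitochondrial base written first. The substitution in mt-Nd3, the difference that leaves a few of its windows countable, is shown with its surroundings on the plus strand of the mitochondrial genome (chrM:9424-9498) and as the same stretch of the copy (chr1:24619919-24619993, minus strand), with the differing base in capitals.
mt-Nd3 site in the mitochondrial genome: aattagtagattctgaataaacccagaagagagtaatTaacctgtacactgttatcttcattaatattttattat
The same site in the chromosome 1 copy: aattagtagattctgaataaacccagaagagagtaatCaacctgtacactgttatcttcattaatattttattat

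The tRNA genes are short, and a read of 75 bases, the length given by the cycles of the sequencing kit, is longer than most of them. The authors' counter gave a read to a gene only if no second gene shared it, so a 75-base window counts for a tRNA gene only where the gene is long enough or lies beside bases without a gene. Of the 22 tRNA genes, 4 had any such window: mt-Tp with 67, mt-Tn with 31, mt-Tc with 26 and mt-Tl1 with 1. Of the 31 windows of mt-Tn, 10 had no identical nuclear place. No window of mt-Tn or mt-Tc was free of nuclear places within 2 mismatches, and the part of these places in their counts was not tested. The stretches that could be counted are printed for mt-Tl1 (chrM:2676-2750), which is exactly as long as a read, for mt-Tp (its first window, chrM:15356-15430, next to the D-loop control region) and for mt-Tc (chrM:5160-5259, with the bases towards mt-Tn, where the origin of light-strand replication lies). All are written on the plus strand of NCBIM37, with the bases of the tRNA gene in capitals, and mt-Tp and mt-Tc are encoded on the minus strand.
mt-Tl1: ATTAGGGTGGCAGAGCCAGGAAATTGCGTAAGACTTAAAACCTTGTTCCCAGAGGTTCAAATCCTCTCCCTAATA
mt-Tp: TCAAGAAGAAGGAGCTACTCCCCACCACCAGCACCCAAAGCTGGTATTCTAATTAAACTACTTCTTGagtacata
mt-Tc: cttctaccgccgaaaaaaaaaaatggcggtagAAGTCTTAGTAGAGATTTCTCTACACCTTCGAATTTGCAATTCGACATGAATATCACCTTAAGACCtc

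The 4 tRNA genes with a countable window were the 4 with counts, and the 18 without one held 0 counts in all 10 libraries. With reads of 50 bases all 22 tRNA genes would have had windows. Among the mRNA genes, mt-Co2, mt-Atp8, mt-Atp6, mt-Co3 and mt-Nd4l had no window without an identical nuclear place. mt-Atp6 and mt-Nd4l held no count, mt-Co2 held 1, mt-Atp8 held 2 and mt-Co3 held 14, all of these in libraries labelled P3. mt-Nd3 had 3 such windows, those that cover the substitution shown above, and held between 0 and 6 counts per library. mt-Co1 (chrM:5328-6872) kept 886 of its 1472 windows and mt-Nd4 (chrM:10167-11544) 503 of 1305. In all, 20 of the 37 genes held no count, and 11 reached a mean of 10 counts: mt-Nd1, mt-Nd2, mt-Nd4, mt-Nd5, mt-Nd6, mt-Cytb, mt-Co1, mt-Rnr1, mt-Rnr2, mt-Tc and mt-Tp. A low or absent count of the other 26 genes cannot be read as a low level of their RNA.

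**Figure D1:**
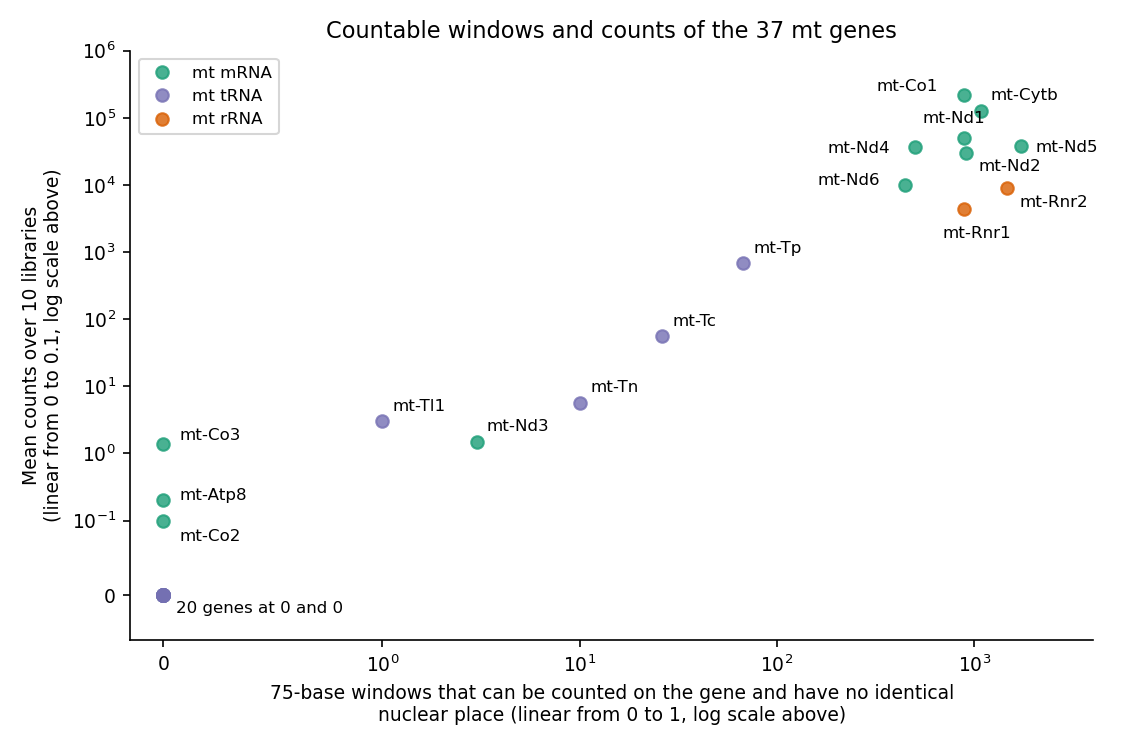
Each point is one of the 37 mitochondrial genes. The x axis gives the number of 75-base windows that the counter can give to the gene and that have no identical nuclear place, and the y axis gives the mean count over the 10 libraries; both axes are linear near 0 and logarithmic above. 20 genes sit at 0 on both axes, and mt-Co2, mt-Atp8 and mt-Co3 hold counts without such a window.

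The mRNA class was highest in the libraries labelled P3. Its level was 17356 and 11533 nuclear CPM for P1, 10285 and 10288 for P2, 1411988 and 549558 for P3, 39636 and 35361 for P4 and 52400 and 40376 for P5. In the first P3 library mitochondrial mRNA counts outnumbered all nuclear counts. The libraries fell in the order P3, P5, P4, P1, P2, with no overlap between populations. The means were 980773 ± 609830 in P3 (SD, n = 2), 46388 ± 8502 in P5, 37498 ± 3023 in P4, 14444 ± 4117 in P1 and 10287 ± 2.27 in P2. The P3 mean was 21.1 times that of P5, 26.2 times that of P4, 67.9 times that of P1 and 95.3 times that of P2. These ratios rested in part on P3 replicate 1, without which they were 11.8, 14.7, 38.05 and 53.4. The means of P5 and P4 lay 1.24-fold apart, less than the 1.30-fold between the P5 replicates. The order of P1 and P2 turned with the denominator: without the 10 most abundant nuclear genes, which include the Paneth cell genes Lyz1 and Defa24, the means were 15412 in P1 and 17751 in P2. With nuclear counts scaled by TMM they were 16103 and 17447.

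**Figure D2:**
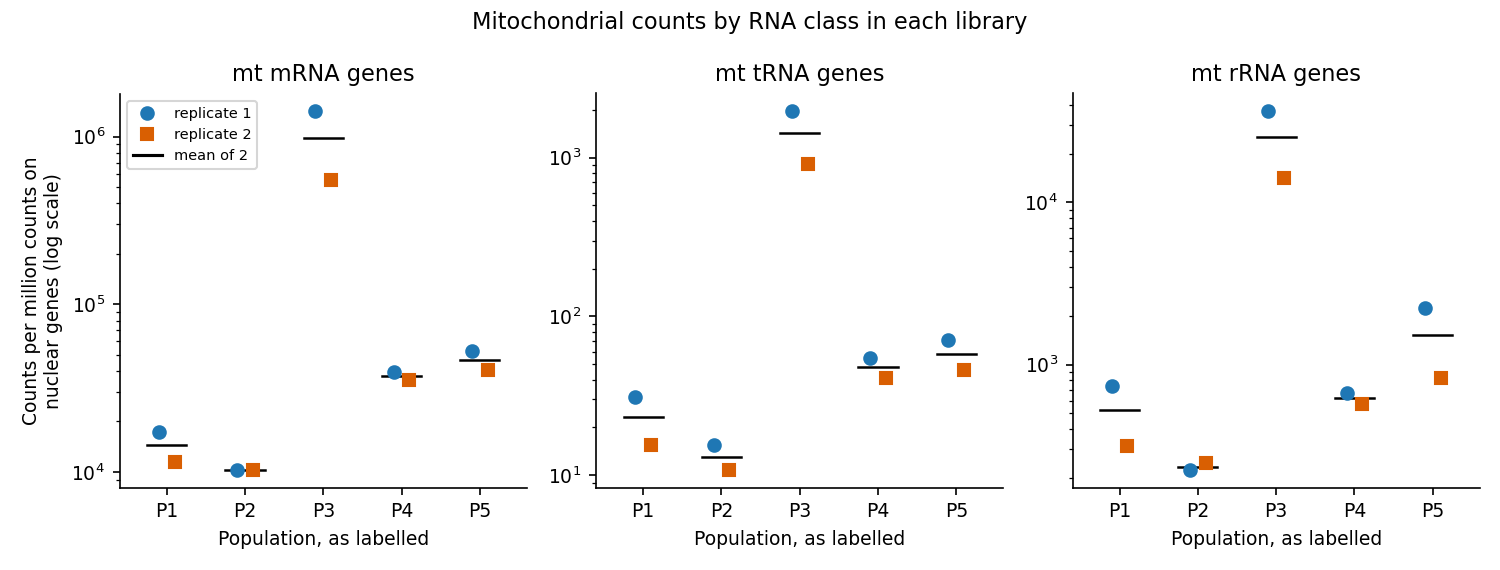
The 3 panels give the summed level of mitochondrial mRNA, tRNA and rRNA genes in each library in nuclear CPM, on log scales that differ between panels. Circles are replicate 1, squares replicate 2 and lines the mean of both. Both libraries labelled P3 lie above the 8 others in each class, and the mRNA levels of the others run from 10285 to 52400.

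The tRNA class followed the same order of means. It stood at 31.2 and 15.6 nuclear CPM for P1, 15.4 and 10.8 for P2, 1951 and 911 for P3, 55.1 and 41.2 for P4 and 70.8 and 46.0 for P5. The libraries of P4 and P5 overlapped, and the lower P1 library lay just above the higher P2 library. Set against the mRNA class, there were between 1.05 and 1.80 tRNA counts per 1000 mitochondrial mRNA counts in the 10 libraries, and the 1.38 and 1.66 of those labelled P3 lay inside the range of the others. These counts come from 4 of the 22 genes and, since mt-Tp, mt-Tn and mt-Tc are shorter than a read, a 75-base read counted on one of those genes extends past the mature tRNA.

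The rRNA class varied more between replicates. Its level was 742 and 313 nuclear CPM for P1, 224 and 246 for P2, 36408 and 14149 for P3, 669 and 571 for P4 and 2225 and 832 for P5. Here the libraries of P1 and P4 overlapped, and their means, 527 and 620, changed order when nuclear counts were scaled by TMM (586 and 484). Per 1000 mitochondrial mRNA counts there were 42.7 and 27.1 rRNA counts for P1, 21.8 and 23.9 for P2, 25.8 and 25.7 for P3, 16.9 and 16.2 for P4 and 42.5 and 20.6 for P5. Replicate 1 of P1 and replicate 1 of P5 stood above the others, and the libraries labelled P3 lay within the range of the rest. mt-Rnr1 (chrM:70-1024), the RNA of the small ribosomal subunit, had 270 and 85.6 for P1, 58.3 and 60.6 for P2, 12609 and 4571 for P3, 197 and 117 for P4 and 798 and 185 for P5 nuclear CPM. mt-Rnr2 (chrM:1094-2675), that of the large subunit, had 472 and 227 for P1, 166 and 185 for P2, 23799 and 9578 for P3, 472 and 454 for P4 and 1427 and 647 for P5. In both genes replicate 1 of P1 and of P5 was above its partner. The libraries were poly-A selected, and ribosomal RNA carries no long poly-A tail, so these values are no measure of all mitochondrial ribosomal RNA.

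Among the mRNA genes mt-Co1, the catalytic core of complex IV, took the largest share, between 35.9% and 45.3% of mitochondrial mRNA counts. Its level was 7157 and 4516 nuclear CPM for P1, 3690 and 3802 for P2, 639734 and 231410 for P3, 15306 and 13686 for P4 and 22018 and 16014 for P5. mt-Cytb, the cytochrome b of complex III (chrM:14145-15288), stood at 4317 and 3042 for P1, 2733 and 2717 for P2, 341287 and 137458 for P3, 10330 and 9719 for P4 and 13007 and 10528 for P5. In nuclear CPM, the P3 libraries lay above all others in both genes, the P2 libraries below all others, and the populations did not overlap. The order of P1 and P2 in the class turned with the denominator, as given above. Single genes were not set on the other denominators, so P2 below P1 is an order in nuclear CPM only.

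Complex I was represented by mt-Nd1, mt-Nd2, mt-Nd4, mt-Nd5 and mt-Nd6. mt-Nd1 (chrM:2751-3707), a membrane subunit, stood at 1773 and 1140 nuclear CPM for P1, 1032 and 989 for P2, 132807 and 57260 for P3, 4026 and 3471 for P4 and 4890 and 3889 for P5. Its P4 and P5 libraries overlapped. mt-Nd6 (chrM:13552-14070) is the mRNA gene on the minus strand; it stood at 354 and 260 for P1, 276 and 255 for P2, 26347 and 9831 for P3, 968 and 811 for P4 and 1189 and 950 for P5. For mt-Nd6 the P1 and P2 libraries overlapped, and so did those of P4 and P5. mt-Nd2 (chrM:3914-4951), like mt-Nd4 and mt-Nd5 one of the membrane subunits related to ion antiporters, had 1079 and 743 for P1, 739 and 758 for P2, 73244 and 35580 for P3, 2439 and 2252 for P4 and 2934 and 2647 for P5 nuclear CPM. The level of mt-Nd4 was 1261 and 886 for P1, 808 and 821 for P2, 99846 and 39692 for P3, 2909 and 2576 for P4 and 3921 and 2928 for P5. In mt-Nd5 (chrM:11742-13565) the values were 1414 and 947 for P1, 1007 and 946 for P2, 98711 and 38326 for P3, 3657 and 2845 for P4 and 4440 and 3419 for P5. In all 3 genes P3 lay above the rest and P4 and P5 above P1 and P2.

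Levels were also taken per 100 countable windows without an identical nuclear place, to allow for unlike numbers of windows. Places within 2 mismatches were not excluded. Windows free of those numbered 257 of 1472 in mt-Co1 and 883 of 883 in mt-Nd1, and their part in the order of genes was not tested. On this scale the P4 means in nuclear CPM were 1636 for mt-Co1, 933 for mt-Cytb, 545 for mt-Nd4 and 425 for mt-Nd1. They were 258 for mt-Nd2 and 189 for mt-Nd5, with mt-Nd6 just above mt-Nd5. On the same scale mt-Rnr2 had 31.6 and mt-Rnr1 17.8. In P3 the order kept mt-Co1 (49162) and mt-Cytb (22267) at the top, followed by mt-Nd4 (13871) and mt-Nd1 (10763), and mt-Nd6 (4065) and mt-Nd5 (3981) stayed at the bottom of the mRNA genes.

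The ratio of the P3 mean to the P4 mean ran from 20.3 for mt-Nd6 to 30.0 for mt-Co1 over the 7 mRNA genes. It was 36.0 for mt-Rnr2, 54.7 for mt-Rnr1, 18.0 for mt-Tc and 31.5 for mt-Tp. All 11 genes with a mean of 10 counts had both P3 libraries above the 8 others, as 5.5% of the 12462 genes of that abundance did (686 genes). The rule used these levels, so nothing is read from that count. The ratio of P1 to P4 was 0.345 to 0.403 for the mRNA genes and 0.755 and 1.13 for the rRNA genes. The ratio of P2 to P4 was 0.258 to 0.319 for the mRNA genes and 0.378 and 0.379 for the rRNA genes, and that of P5 to P4 was 1.17 to 1.31 and 2.24 to 3.13. The rRNA ratios turned on single libraries. Without P5 replicate 1 the ratio of P5 to P4 was 1.18 for mt-Rnr1 and 1.40 for mt-Rnr2, and it was 5.08 for mt-Rnr1 without P5 replicate 2. Without P1 replicate 1 the ratio of P1 to P4 was 0.545 for mt-Rnr1 and 0.491 for mt-Rnr2, and it was 1.72 for mt-Rnr1 without P1 replicate 2. Without P3 replicate 1 the ratio of P3 to P4 was 29.1 for mt-Rnr1 and 20.7 for mt-Rnr2.

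mt-Tp, the proline tRNA gene (chrM:15356-15422), carried most tRNA counts. It stood at 27.4 and 13.2 nuclear CPM for P1, 13.3 and 9.54 for P2, 1831 and 832 for P3, 50.1 and 34.5 for P4 and 61.9 and 39.1 for P5. The lowest value rested on 60 counts, with an exact 95% Poisson interval of 7.28 to 12.3 nuclear CPM, which overlaps the interval of the lower P1 library, 10.5 to 16.3. mt-Tc, the cysteine tRNA gene (chrM:5192-5257), stood at 3.75 and 2.25 for P1, 1.90 and 1.11 for P2, 102 and 70.3 for P3, 4.43 and 5.11 for P4 and 8.03 and 5.56 for P5. Its 7 to 49 counts in the libraries other than P3 left wide intervals, and the intervals of neighbouring populations overlapped. mt-Tn and mt-Tl1, named after their values were seen, held 21 and 15 counts and 9 and 13 counts in the P3 libraries and at most 7 and 4 elsewhere.

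The share of a gene within its class does not use the level of the class, so shares were tested over the 5 populations with an exact permutation test over all divisions of the 10 libraries into 5 pairs, in which no p-value below 0.00106 is possible. The share of mt-Nd6 in mitochondrial mRNA counts was 2.04% and 2.25% for P1, 2.68% and 2.48% for P2, 1.87% and 1.79% for P3, 2.44% and 2.29% for P4 and 2.27% and 2.35% for P5. The P3 libraries were lowest and the P2 libraries highest. Populations differed in this share (exact permutation p = 0.00317, adjusted over 6 shares 0.0190). Complex I genes together took 37.1% ± 0.64 in P2 (SD, n = 2), 34.6% ± 1.07 in P4, 34.2% ± 0.41 in P1, 33.7% ± 0.78 in P5 and 31.7% ± 1.67 in P3. The exact permutation test gave p = 0.0138, adjusted 0.0275. Complex IV, which here is mt-Co1 alone but for 15 counts of mt-Co2 and mt-Co3, moved the other way, with 43.7% ± 2.26 in P3, 40.8% ± 1.67 in P5, 40.2% ± 1.47 in P1, 38.7% ± 0.063 in P4 and 36.4% ± 0.76 in P2 (exact permutation p = 0.0106, adjusted 0.0275).

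Shares of one total cannot move alone, so the results for complex I and complex IV are not independent. The mt-Nd6 call was lost without P1 replicate 1 (adjusted p = 0.0635), P2 replicate 1 (0.190), P3 replicate 1 (0.0688) or 2 (0.0783), P4 replicate 1 (0.0857) or 2 (0.0571), and P5 replicate 1 (0.0698) or 2 (0.0593), by the exact permutation test. The calls for complex I and complex IV were lost on leaving out any 1 library other than P3 replicate 2, at adjusted values of 0.0571 to 0.190 and 0.0593 to 0.190. A filter for at least 80% of windows free of near copies removes mt-Co1 (17.5%), mt-Nd4 (38.4%) and mt-Nd6 (79.1%). The complex I share is then that of mt-Nd1, mt-Nd2 and mt-Nd5 beside mt-Cytb alone. Its adjusted value was 0.574 by the exact permutation test. As a different quantity, it cannot say what near copies do to the share above. Without both P3 libraries the adjusted values were 0.0952 for mt-Nd6, 0.159 for complex I and 0.0952 for complex IV. With the replicate number as a block, the exact permutation test left no call under 0.05. The adjusted values were then 0.05 for mt-Nd6, 0.0833 for complex I and 0.05 for complex IV. Counting ignored strand, so reads of mt-Nd6 and of RNA copied from the other strand across it cannot be told apart. The libraries were poly-A selected, and how fully the selection caught each mRNA, mt-Nd6 among them, was not tested. For the share of complex III (mt-Cytb) the exact permutation test gave an adjusted p of 0.308, with means from 24.6% in P3 to 26.8% in P4. For mt-Rnr1 among rRNA counts it gave 0.688, with single libraries between 20.5% and 36.3%. Complex V held 2 counts in all.

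**Figure D3:**
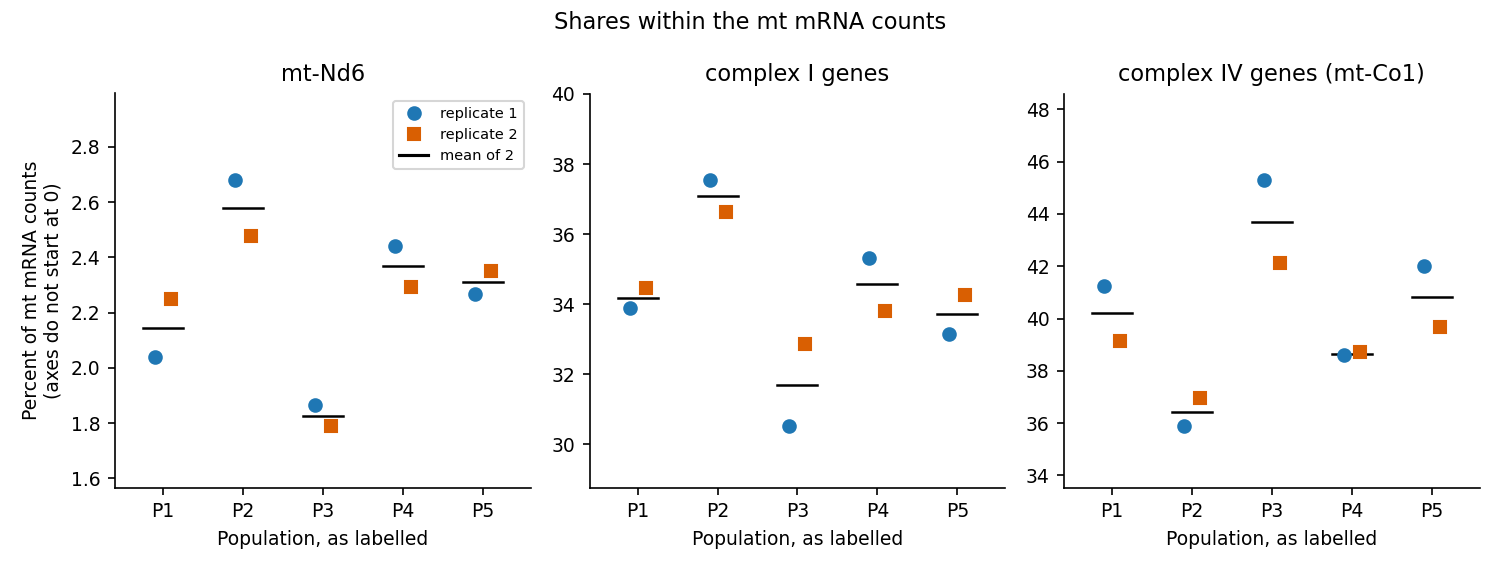
The panels give the percent of mitochondrial mRNA counts on mt-Nd6, on all complex I genes and on complex IV genes in each library, with circles for replicate 1, squares for replicate 2 and lines for the mean; the axes do not start at 0. The libraries labelled P3 lie lowest for mt-Nd6, at 1.87% and 1.79%, and highest for complex IV, at 45.3% and 42.1%.

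Reads that align to more than 1 place are kept out of the genes but are tallied by the counter. Per 1000000 nuclear counts their alignments came to 145699 and 189260 for P1, 464963 and 434010 for P2, 1833823 and 841001 for P3, 195179 and 196611 for P4 and 216474 and 197197 for P5. The P3 libraries were highest here as well, in the order of their mitochondrial counts, and the P2 libraries came next although their mitochondrial counts were lowest. The tally does not say which reads it holds, and the part of the chromosome 1 copy in it was not tested. A second copy, chr2:22442808-22446054, matched mitochondrial positions 4441 to 7699 at 97.362% identity and carries the pseudogenes Gm13340 and Gm13341, which are named here after their values were seen. Gm13340 (chr2:22443623-22445167) stood at 584 and 193 nuclear CPM in P3 and at 2.41 to 21.8 in the other libraries. Its P3 mean was 27.1 times its P4 mean, beside 30.0 for mt-Co1, which lies in the matched stretch. The genes Gm10222 and Gm10925 inside the chromosome 1 copy held 0 to 1.67 nuclear CPM.

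**Figure D4:**
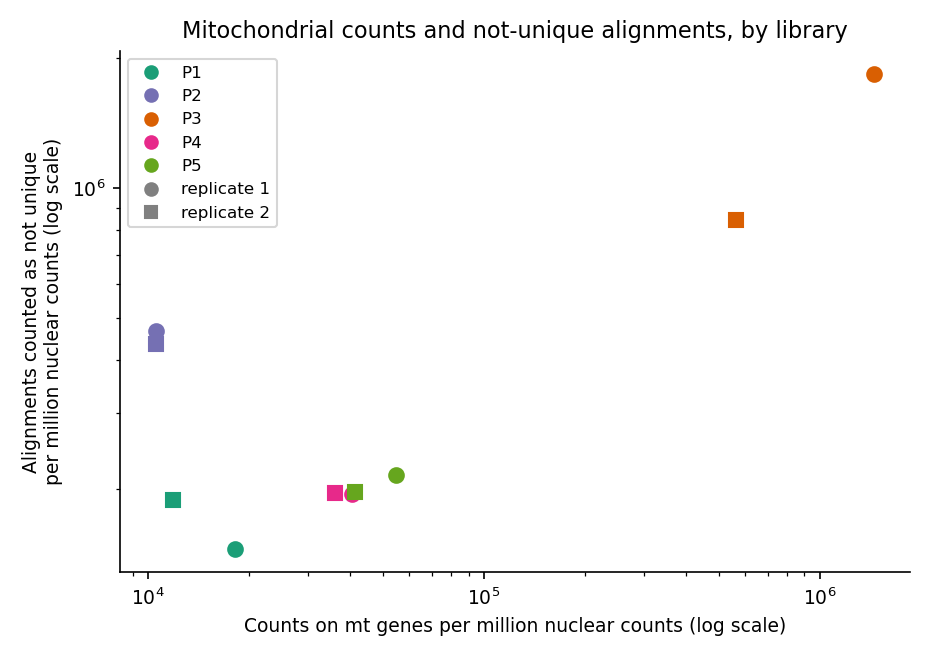
Each point is a library, coloured by population, with circles for replicate 1 and squares for replicate 2. The x axis gives counts on mitochondrial genes and the y axis alignments counted as not unique, both per 1000000 nuclear counts on log scales. The P3 libraries lie highest on both axes, at 1833823 and 841001 not-unique alignments, and the P2 libraries pair the lowest mitochondrial counts with 464963 and 434010.

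Other measures moved with the P3 libraries, and their part in the mitochondrial levels was not tested. The first P3 library had counts on 12694 genes and the second on 15320, against 15750 to 17091 elsewhere. The 5 red blood cell markers (Hbb-b1, Hbb-b2, Hba-a1, Hba-a2 and Alas2) all had counts there and summed to 232 and 156 nuclear CPM, where the others held 0.164 to 31.5 and only P1 replicate 2 had counts on all 5. The 7 leukocyte markers summed to 191 and 4.66, within the range of the other libraries, 0.963 to 953. Malat1 and Neat1, RNAs that stay in the nucleus, summed to 175 and 289 in P3, to 190 and 127 in P1 and to 376 to 896 elsewhere. Stress genes of tissue dissociation came to 161 and 498, against 432 to 1319 elsewhere. In a bulk library more mitochondrial RNA per cell and less nuclear RNA per cell cannot be told apart, nor can a change in all cells from a change in the mix of cells.

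In the fit across all genes (edgeR, quasi-likelihood F-test, p-values adjusted by Benjamini-Hochberg over 13708 genes and called under 0.01), 13 mitochondrial genes passed the filter on low counts. This fit scales each library by TMM over all its genes, so its differences are not those of the nuclear CPM above. Of these, 12 were called over the 5 populations, where 36.3% of all genes were, and 12 were higher in P3 than in P1, where 8.02% of all genes were. Without P1 replicate 1 the latter count was 0, with 0% of all genes called in either direction, and without P1 replicate 2 it was 2, with 2.17%. No mitochondrial gene was called between P3 and P5, where 0% of all genes were called and 1587 had an unadjusted p under 0.05. DESeq2 called 11 members there, with 0.314% of all genes. None was called between P1 and P4 (23.5% of all genes), P2 and P4 (14.3%) or P5 and P4 (0%). For the interaction of OSCAR and EF1a by the labels, the P3 minus P5 difference less the P1 minus P4 difference, 1 member was called, mt-Tp, where 0.817% of all genes were called, 0.328% higher and 0.489% lower. The filter and these contrasts use the levels by which the members were chosen, so nothing is read from these counts.

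Nuclear genes copy, cut, modify and degrade mitochondrial RNA and maintain its DNA. Of 58 such genes, listed from general knowledge, 54 had rows and all 54 were tested. Their summed level was 1502 and 1524 nuclear CPM for P1, 886 and 824 for P2, 2256 and 2934 for P3, 2911 and 3142 for P4 and 2607 and 2827 for P5. The P2 libraries were lowest, P1 next, and the P3 libraries overlapped those of P4 and P5. By edgeR's quasi-likelihood test 20 of the 54 were called over the 5 populations (36.3% of all genes). Between P3 and P1, 14 were higher in P3 and none lower, with 8.02% and 7.59% of all genes; the median difference was 0.74 (log2) over the list and -0.030 over all genes. P1 against P4 gave 15 lower and 1 higher, with 9.44% and 14.0% of all genes and medians of -0.68 and -0.056. P2 against P4 gave 8 lower and none higher, with 6.30% and 8.02% of all genes and medians of -0.62 and 0.054. None was called between P3 and P5 or between P5 and P4, where 0% of all genes were called. At an unadjusted p under 0.05 by the same test, 4 of the 54 passed between P3 and P5, and 1587 of all 13708 genes. Between P5 and P4 it was 0 of the 54, and 351 of all 13708 genes.

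These counts moved with those over all genes when 1 library was left out, in fits where the remaining library was taken to vary like the other populations. Between P3 and P1, 0 genes of the list were called without P1 replicate 1 (0% of all genes), 2 without P1 replicate 2 (2.17%), 7 without P3 replicate 2 (8.70%), 5 without either library of P4 (8.41% and 8.45%) and 5 without either library of P5 (9.88% and 9.79%). Between P1 and P4 there were 1 and 9 without P1 replicate 1 and 2 (5.83% and 8.15%), 24 without either P3 library (30.3% and 30.4%) and 0 without either P4 library (0%). Between P2 and P4 there were 3 and 2 without P2 replicate 1 and 2 (4.29% and 4.09%), 14 without either P3 library (18.9% and 19.1%) and 2 without either P4 library (2.74% and 2.21%). Over the 5 populations the count of the list fell without any 1 library of P1, P2, P4 or P5. It rose without either library of P3. The share of all genes called fell and rose in the same fits.

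Among the transcription genes, Polrmt, the mitochondrial RNA polymerase, had TMM-scaled CPM of 12.7 and 16.01 for P1, 23.1 and 19.8 for P2, 77.2 and 42.9 for P3, 43.5 and 53.2 for P4 and 40.1 and 45.3 for P5. The P1 libraries were lowest, and those of P3, P4 and P5 overlapped. It was 2.05 ± 0.30 (log2, SE) higher in P3 than in P1 (edgeR adjusted p = 0.00214) and lower in P1 than in P4, with a difference of -1.75 ± 0.30 (adjusted p = 0.00234). Tfam, which packs and bends mitochondrial DNA at its promoters, was lower in P2 than in P4, at -1.35 ± 0.24 (edgeR adjusted p = 0.00376), and its difference between P3 and P1 was 0.70 ± 0.24 (adjusted p = 0.0474). Tfb2m, which opens the promoter, passed no test, with an edgeR adjusted p of 0.247 over the 5 populations. Of the 7 transcription genes tested, 1 was higher in P3 than in P1 (8.02% of all genes), 1 lower in P1 than in P4 (9.44%) and 1 lower in P2 than in P4 (6.3%).

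RNA processing and decay held 20 tested genes, of which 7 were higher in P3 than in P1 (8.02% of all genes), 7 lower in P1 than in P4 (9.44%) and 5 lower in P2 than in P4 (6.3%). Pnpt1, the polynucleotide phosphorylase that degrades mitochondrial RNA, had TMM-scaled CPM of 21.3 and 22.0 for P1, 20.4 and 18.5 for P2, 86.7 and 83.2 for P3, 61.1 and 57.9 for P4 and 53.7 and 55.3 for P5. Its P3 libraries were the highest and those of P1 and P2 the lowest. It was 1.97 ± 0.17 (log2, SE) higher in P3 than in P1 (edgeR adjusted p = 0.00138), and the P3 minus P5 difference of 0.64 ± 0.17 did not pass (adjusted p = 0.341). Lrpprc, which stabilises mitochondrial mRNAs, stood at 59.6 and 66.2 for P1, 48.3 and 35.6 for P2, 153 and 196 for P3, 174 and 193 for P4 and 163 and 191 for P5. Its P3 minus P5 difference was -0.017 ± 0.22 (log2, SE). Supv3l1, the helicase that works with Pnpt1, was lower in P1 than in P4, at -1.24 ± 0.26 (edgeR adjusted p = 0.00570). Tbrg4, which acts on stability of mitochondrial mRNAs, and Hsd17b10, a subunit of the enzyme that cuts the 5′ ends of tRNAs, were lower in P2 than in P4, at -1.44 ± 0.21 and -1.11 ± 0.18 (edgeR adjusted p = 0.00172 and 0.00246).

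The rRNA and tRNA modification genes counted 10, of which 4 were higher in P3 than in P1 (8.02% of all genes), 3 lower in P1 than in P4 (9.44%) and none called between P2 and P4 (14.3%). Mrm1 and Rnmtl1, methyltransferases of mitochondrial ribosomal RNA, were 1.70 ± 0.27 and 2.30 ± 0.46 (log2, SE) higher in P3 than in P1 (edgeR adjusted p = 0.00251 and 0.00592). Peo1, the helicase that unwinds mitochondrial DNA for its replication, was 1.23 ± 0.26 higher in P3 than in P1 (adjusted p = 0.00712), and among the 10 DNA maintenance genes it was the 1 called in that comparison (8.02% of all genes were higher).

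The 7 nuclear regulators did not move together. Ppargc1a, a coactivator of genes for mitochondrial biogenesis, stood at 108 and 68.2 TMM-scaled CPM for P1, 5.47 and 6.90 for P2, 41.8 and 19.3 for P3, 37.8 and 25.2 for P4 and 41.2 and 25.6 for P5. P1 was highest and P2 lowest. The P1 minus P4 difference of 1.48 ± 0.40 (log2, SE) did not pass (edgeR adjusted p = 0.0168). With the replicate number as a block it passed (edgeR adjusted p = 0.00245). The P2 minus P4 difference was -2.33 ± 0.46 (edgeR adjusted p = 0.00580). Its relative Ppargc1b was lower in P1 than in P4, at -2.16 ± 0.29 (edgeR adjusted p = 0.00120) and 1.82 ± 0.30 higher in P3 than in P1 (adjusted p = 0.00296). Pprc1, also of this family, was lower in P1 than in P4, at -2.42 ± 0.39 (edgeR adjusted p = 0.00206), and P2 and P4 differed by 0.013 ± 0.36. Gabpa, named after its value was seen, was the 1 gene of the list called higher in P1 than in P4 in the fit across all genes. It encodes a transcription factor of respiratory genes and differed by 1.03 ± 0.22 (edgeR adjusted p = 0.00567). With TMM on nuclear genes no gene of the list was called higher there and 20 were lower (24.2% of all genes called). DESeq2 called 3 higher and 21 lower (33%), and the block gave 2 higher and 17 lower (28.3%).

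**Figure D5:**
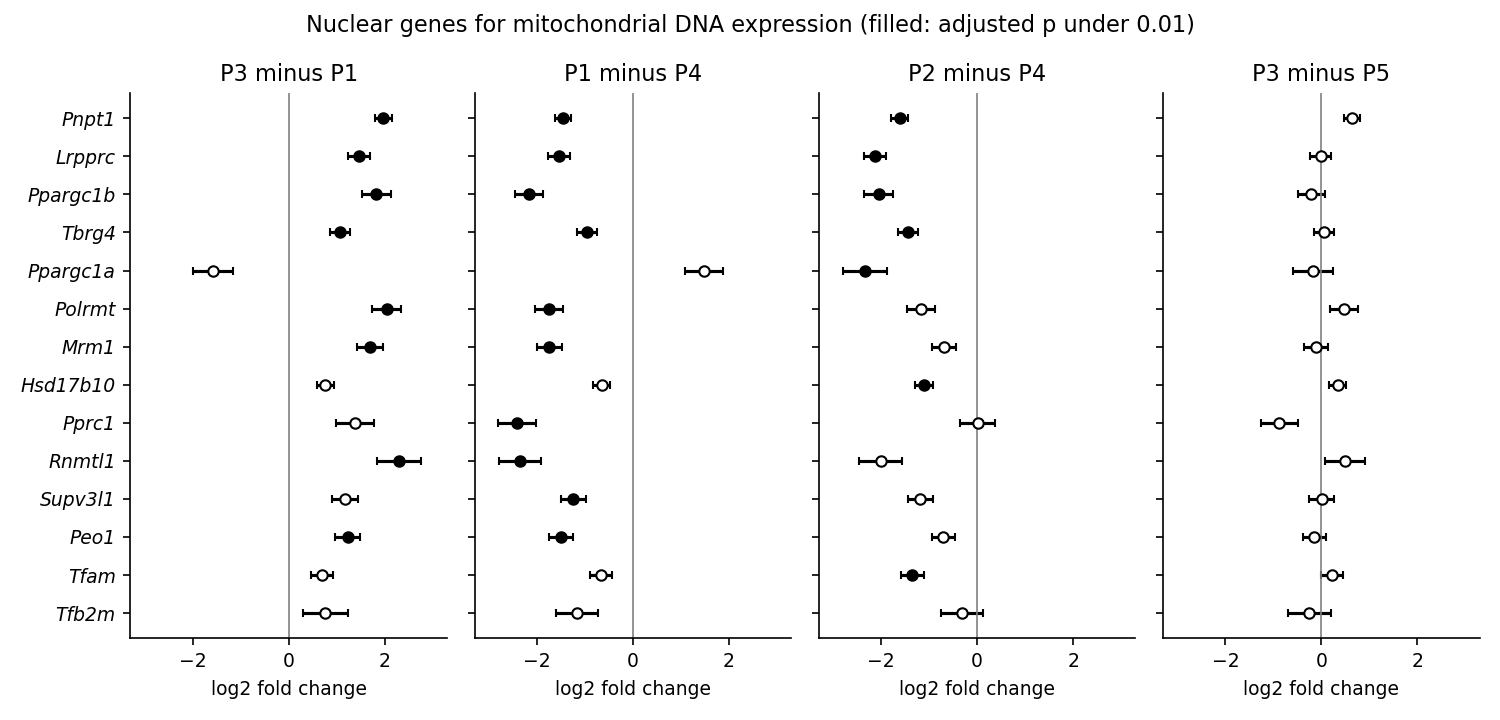
The log2 fold changes (edgeR) of 14 nuclear genes for mitochondrial DNA expression are plotted for 4 comparisons. Bars are standard errors derived from the F statistic, and filled points have an adjusted p under 0.01. Polrmt and Pnpt1 are filled and to the right in P3 minus P1 and filled and to the left in P1 minus P4, and no point is filled in P3 minus P5.

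The nuclear genes of the respiratory chain, 103 rows found by their name prefixes, summed to 23869 and 22272 nuclear CPM for P1, 3740 and 4997 for P2, 28888 and 29144 for P3, 21346 and 22709 for P4 and 20957 and 21567 for P5. In nuclear CPM the P3 libraries were highest and the P2 libraries lowest, without overlap with the rest. These sums are not scaled by TMM over nuclear genes, whose factors were 0.561 and 0.621 in P2. They were 0.906 and 0.883 in P1 and 1.10 and 1.29 in P3. Paneth cell markers alone held 389425 and 284071 nuclear CPM in P2. The order given is that of nuclear CPM only. Across the 10 libraries these sums ran from 3740 to 29144, and the mitochondrial mRNA level from 10285 to 1411988. Without P2 the sums ran from 20957 to 29144 and the mitochondrial mRNA level from 11533 to 1411988.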

How the data were processed

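RNA from 10 libraries (2 replicates of 5 sorted populations) was measured by poly-A RNA sequencing. The deposited values are raw counts per gene, which the authors made with TopHat2 2.1.0 and Bowtie on mm9 and with HTSeq 0.11.2 on exons without regard to strand, leaving out reads with more than 1 alignment; FastQC 0.11.5 was used for quality. The annotation counted on is not given in the sources used here. Depth was 3857612 to 6485823 counts on genes. Counter rows and a row without a gene name (under 0.001% of counts) were left out. Groups follow the titles, and no library was renamed. The members and lists were chosen with earlier results of these data known.

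Levels are counts per 1000000 counts on nuclear genes, or nuclear CPM. Countable windows were found by sliding 75-base windows over the mitochondrial genome of NCBIM37 with GENCODE genes, and copies with blastn 2.17.0 (at least 75 bases and 98% identity). All genes were fitted with edgeR 4.0.16 (R 4.3.3; TMM, filterByExpr, 204 nuclear rRNA names removed, 5 residual degrees of freedom), with an adjusted p under 0.01 as in the study; DESeq2 1.42.0 was an alternative. The SE of a log2 difference was taken as its absolute value divided by the square root of its quasi-likelihood F. Shares were tested by exact permutation at 0.05. Procedures were tested on simulated data. Replicates of a population differed by more than sampling noise (chi-square per degree of freedom of 19.6 to 44.5). Other alternatives were the denominators, no filter, a threshold of 0.05, the replicate block, leaving out each library and, chosen after seeing the data, leaving out both libraries labelled P3. Named are all mRNA and rRNA genes, tRNA genes with a mean of 10 counts, the 12 list genes with the largest F among those called, Polrmt, Tfam and Tfb2m; the rule for nuclear copies named none. Tables and figures used matplotlib 3.10.9, scipy 1.17.1, numpy 2.4.6 and pandas 2.3.3 in Python 3.11.15.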

Additional observations from a re-analysis of the deposited data

Results flagged for a closer look

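By the labels, the difference of Pnpt1, the mitochondrial RNA phosphorylase, between OSCARlow and OSCARmed cells was not the same at the 2 EF1a levels: the difference between OSCARlow and OSCARmed was 0.64 (log2) at EF1ahigh (P3 minus P5) and -1.46 at EF1alow (P1 minus P4), and the interaction was 2.096 ± 0.24 (SE; edgeR's quasi-likelihood test, adjusted p = 0.00884). It was called in 1 of the 54 nuclear genes for mitochondrial DNA expression, where 0.817% of all genes were called. TMM-scaled CPM were 21.3 and 22.0 in P1, 61.1 and 57.9 in P4, 86.7 and 83.2 in P3, and 53.7 and 55.3 in P5, so both P1 libraries lay below those of P4 and both P3 libraries above those of P5. In each of the 10 fits that left out 1 library no gene of the list was called for this interaction, and 0% of all genes were. The contrast is an interaction of OSCAR and EF1a only if the libraries labelled P3 come from the P3 gate; the secretory cell markers of the libraries labelled P2 leave this in doubt, and with P2 and P3 exchanged the contrast has no such meaning.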

How the results depend on the processing

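The P2 mean of mitochondrial mRNA, 10287 nuclear CPM, was 17751 without the 10 most abundant nuclear genes, 17447 with TMM-scaled nuclear counts and 10180 over counts on all genes; with TMM the P4 and P5 means were 29251 and 37728. The tRNA means became 22.9 and 22.4 in P2 without the top genes and with TMM, 689 in P3 over all counts and 37.6 in P4 with TMM, and the rRNA means 404 and 398 in P2 and 484 in P4. With genes that have at least 80% of windows free of near copies, tRNA counts per 1000 mRNA counts were 2.73, 2.09, 2.98, 2.18 and 2.20 in P1 to P5. The ratio of P3 to P2 in mRNA fell from 95.3 to 56.2 without the top genes, 49.0 with TMM and 45.6 over all counts, and that to P5 from 21.1 to 10.5 over all counts.

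Called mitochondrial genes over the 5 populations numbered 12 (36.3% of all genes), and 0 without the libraries labelled P3 (48.1%). Between P3 and P5 they numbered 0 (0%). There they were 11 with DESeq2 (0.314%), 11 without the filter on low counts (1.38%) and 2 with the replicate block (0.0292%). Between P5 and P4 there was 1 without the filter (0.886%). For the interaction the called mitochondrial genes numbered 1 (0.817%). There were 7 with TMM on nuclear genes (2.95%), 12 with DESeq2 (14.4%), 12 without the filter (10.5%) and 11 at an adjusted p under 0.05 (17.3%). Counts between P3 and P1 with a P1 library left out are given above, with the share of all genes. Counts of the nuclear list follow, with the share of all genes called in the same fit. The ranges on leaving out 1 library have no such share beside them. As stated above, those counts moved with the counts over all genes, so nothing particular to the list is read from the ranges. An adjusted p under 0.05 gave 24 between P3 and P1 (34%), 26 between P1 and P4 (42.1%), 16 between P2 and P4 (29.1%) and 16 for the interaction (17.3%). Between P2 and P4 DESeq2 gave 13 (23.3%), no filter 16 (15.9%) and the fit without P3 libraries 14 (20.8%). For the interaction TMM on nuclear genes gave 2 (2.95%), DESeq2 8 (14.4%) and no filter 11 (10.5%). Leaving out 1 library gave 0 to 14 between P3 and P1, 0 to 24 between P1 and P4, 2 to 14 between P2 and P4, 7 to 26 over the 5 populations and 0 for the interaction. The causes were not tested.

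With the replicate number as a block, exact permutation gave adjusted p = 0.05 for mt-Nd6, 0.0833 for complex I and 0.05 for complex IV. Same-numbered libraries had deviations that correlated at -0.0597 to 0.554 over 10 pairs of populations (median 0.255, 9 of 10 over 0.1). Shared structure between them is therefore possible. The labels do not say whether equal numbers pair libraries, so values are given without and with the block. With the block in edgeR, Ppargc1a also passed between P1 and P4 (adjusted p = 0.00245) and between P3 and P1 (0.00318), Supv3l1 between P3 and P1 (0.00992) and P2 and P4 (0.00905) and Rnmtl1 between P2 and P4 (0.00785), and no other call of a named gene of the list changed; for the interaction 8 mitochondrial genes were called with it (4.57% of all genes). Without P3 libraries the values were 0.0952, 0.159 and 0.0952; leaving out 1 library gave 0.0190 to 0.190, 0.0317 to 0.190 and 0.0254 to 0.190; genes with 80% near-copy-free windows gave 0.574 for complex I. That filter left mt-Cytb as the only mRNA gene beside complex I, and no value for mt-Nd6, complex IV or complex V. Complex V could also not be tested as log odds or without P3 libraries. With 2 libraries a population, and 1574312 nuclear counts in the shallowest, the spread within P3 limits every comparison with it.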
